A study of Mus musculus with 8 samples.

Results

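The genes described here are 10 components of the Notch pathway: the ligand genes Jag1, Jag2 and Dll1, the receptor genes Notch1, Notch2 and Notch3, and the target genes Hes1, Hey1, Heyl and Nrarp. They were picked by gene name from the 35275 genes of the deposited table, and each name matched 1 row. Messenger RNA was sequenced from a mouse epicardial cell line, cultured in high-glucose medium with serum. The 8 libraries form 2 groups: 4 are of cells that received a lentivirus with an empty vector (EV), while the other 4 are titled as CRISPR/Cas9 knockouts of Hdac3, the guide RNA having been carried by lentivirus (KO). The labels do not say whether the KO cells were a pool or a clone, or whether replicates were separate cultures, so p-values measure the spread between these libraries, which may be technical. Cells of the EV group had also been through lentiviral transduction. The single comparison asked which transcripts differ between the groups, and here it is read for the Notch genes.

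In Notch signalling, a transmembrane ligand on one cell binds a Notch receptor on its neighbour. Proteases then release the intracellular part of the receptor, which enters the nucleus and joins the DNA-binding protein RBPJ to switch on genes such as the Hes and Hey repressors. Without that signal RBPJ recruits corepressors, among them complexes that hold NCoR proteins and HDAC3. In the epicardium, the cell layer over the heart, the pathway is known for its part in epithelial-mesenchymal transition and in the formation of coronary smooth muscle.

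Both expressed Jagged ligands were lower in KO, by 1.44-fold for Jag1 and 1.46-fold for Jag2, and the receptor gene Notch3 was lower by 1.16-fold. The call of Notch3 was lost in 6 of 17 alternative settings, among them the one without KO replicate 1, whose labels conflict, while those of Jag1 and Jag2 held in all 17. No member was called higher. The most abundant receptor gene, Notch2, and the most abundant target gene, Hes1, did not pass the test, and Hey1, Dll1, Nrarp and Heyl were near the limit of detection. Of the 10 members, 8 had enough counts to be tested and 2 (Heyl and Nrarp) did not. Among the 8 tested, 3 were lower in KO at an adjusted p under 0.05 in edgeR's quasi-likelihood test and 0 were higher; 0 were higher at an unadjusted p under 0.05 or in DESeq2 as well. Over all 12801 genes tested, 13.4% were called lower, 12.6% higher and 26.0% in either direction, so that calls were common in this comparison. The median log2 fold change of the 8 tested members was −0.20, beside 0.005 for all tested genes, and 6 of the 8 had a negative value.

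Library totals ranged from 18063745 to 24564892 counts, at which 3 counts correspond to 0.125 to 0.164 CPM (counts scaled to library size after TMM normalization). KO replicate 1 carries a conflict in its labels: its title says KO while its transduction field names the empty vector. Along the leading principal component (48.8% of variance) it lay at 20.1 with the other KO libraries (16.3 to 19.3) and apart from the EV libraries (−22.3 to −16.9). Without it 2 members, Jag1 and Jag2, were called lower in edgeR in place of 3. The log2 fold changes without it of the tested members that were not called were 0.086 for Dll1, −0.16 for Notch1, 0.11 for Notch2, −0.093 for Hes1 and −0.59 for Hey1, again not called. Hdac3 itself stood at 61.9 ± 1.53 CPM in EV and 61.6 ± 3.23 CPM in KO (SD, n = 4 each, edgeR adjusted p = 0.956), and since an edit can disrupt a protein and leave its transcript, this level does not check the labels. Several epicardial markers were abundant: Upk3b, Msln and Krt18 had means of 805, 328 and 326 FPKM (counts scaled to gene length and library size) in EV. Of 15 listed markers, 13 averaged at least 1 FPKM. Tbx5 and Aldh1a2, named after their values were seen, did not and were not tested. Tbx5 had no count, and Aldh1a2 averaged 0.183 FPKM in EV and 0.109 FPKM in KO. The epicardial markers also moved: of 13 tested, 4 were higher and 4 lower in KO, with log2 fold changes of −0.34 for Upk3b, 0.44 for Msln and 0.54 for Krt18, and their part in the Notch results was not tested. The transcription factor genes Wt1 (−0.37) and Tcf21 (−0.74) and the sialomucin gene Podxl (−0.95), singled out with their values in view, were the other lower ones. The other higher ones, also named with their values in view, were the keratin genes Krt8 (1.66) and Krt19 (1.01). Of 10 endothelial markers 1 (Kdr) averaged at least 1 FPKM. In bulk RNA, fewer cells of a type and less RNA per cell cannot be told apart.

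The sequences just upstream of the 3 genes that fell are shown because these genes moved in one direction, so that a reader can see what their start regions share. RefSeq (GRCm38.p6) gave upstream sequence for 7 of the 10 members. Each run below is the 250 bases before the start in RefSeq, 5′ to 3′ on the gene's strand, and Notch2, which was not called, is set beside them. Capitals mark CACGCG on either strand, the class C site that Hes and Hey proteins can bind. The Jag1 run lies at chr2:137116521-137116770, Jag2 at chr12:112929496-112929745, Notch3 at chr17:32166891-32167140 (these on the minus strand) and Notch2 at chr3:98013288-98013537 (plus strand). The RefSeq start is not always that of the deposited gene interval: for Jag1 it lies 124 bases inside it, so that 124 of the 250 bases shown are within the deposited gene, while the runs of Jag2, Notch3 and Notch2 lie outside theirs. The RefSeq entry of Notch1 and 1 of the 2 of Dll1 lie wholly inside the deposited gene and are not shown.
Jag1: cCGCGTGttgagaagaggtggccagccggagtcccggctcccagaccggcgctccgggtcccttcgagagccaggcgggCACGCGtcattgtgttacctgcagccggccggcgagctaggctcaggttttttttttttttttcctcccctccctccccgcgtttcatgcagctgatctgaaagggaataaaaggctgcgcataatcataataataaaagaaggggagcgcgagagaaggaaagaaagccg
Jag2: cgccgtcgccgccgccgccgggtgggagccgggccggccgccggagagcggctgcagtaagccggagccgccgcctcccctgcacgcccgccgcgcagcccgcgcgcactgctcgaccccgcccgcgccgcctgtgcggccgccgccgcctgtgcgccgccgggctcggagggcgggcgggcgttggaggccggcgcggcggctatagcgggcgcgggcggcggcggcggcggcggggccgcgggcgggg
Notch3: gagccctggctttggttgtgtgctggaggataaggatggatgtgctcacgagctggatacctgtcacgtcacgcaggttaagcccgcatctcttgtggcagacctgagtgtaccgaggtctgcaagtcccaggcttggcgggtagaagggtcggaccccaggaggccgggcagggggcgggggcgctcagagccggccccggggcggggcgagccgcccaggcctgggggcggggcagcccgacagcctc
Notch2: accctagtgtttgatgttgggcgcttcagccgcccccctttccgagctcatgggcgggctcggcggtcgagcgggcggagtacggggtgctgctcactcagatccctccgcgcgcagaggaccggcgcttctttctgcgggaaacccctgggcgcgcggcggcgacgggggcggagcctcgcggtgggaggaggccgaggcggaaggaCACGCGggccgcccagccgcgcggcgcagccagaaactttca

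Jag1 held CACGCG at 2 places, which begin 249 and 171 bases before the RefSeq start and 125 and 47 bases before the deposited one. Notch2 held it once, 42 bases before either start, and Jag2 and Notch3 held none. Dll1, also not called, held it once in 1 of its 2 upstream regions, 68 bases before that RefSeq start. Of all 32851 RefSeq upstream regions of this length, 7.62% contain it. GC boxes (GGGCGG on either strand, overlaps allowed), found in 32.7% of all regions, numbered 5 in Jag2, 4 in Notch3, 5 in Notch2 and 0 in Jag1. The GC content was 57.2% in Jag1, 68.8% in Notch3, 72.0% in Notch2 and 87.2% in Jag2, beside a median of 52.4% for all regions. TGGGAA, the core of the RBPJ site, was in none of the 8 upstream regions of members (Dll1 has 2 starts) and in 21.6% of all regions. The palindrome CACGTG, an E box, was found in Nrarp alone among the members, 108 bases before its RefSeq start, and in 6.02% of all regions. A match or its absence in this window says nothing of whether a factor binds.

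Because the series' title points to a microRNA pathway, the 3′ ends of the members were searched for the seeds of miR-322-5p and miR-503-5p, which are encoded side by side on chromosome X and were picked with outside knowledge of the study, since the labels name no microRNA. Both mature sequences are printed with the seed, bases 2 to 8, in capitals.
miR-322-5p: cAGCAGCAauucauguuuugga
miR-503-5p: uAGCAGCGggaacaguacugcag
The reverse complement of the first seed, TGCTGCT in DNA letters, occurred in the 3′ untranslated regions (GENCODE M21, longest coding transcript) of 2 members, and of 24.96% of the 11849 tested genes with such a region. The stretches around the sites, with the match in capitals, lie at chr17:15367952-15367973 and chr17:15367915-15367936 (minus strand) for Dll1 and at chr2:25182932-25182953 (plus strand) for Nrarp.
Dll1 first site: gccccgatgaaTGCTGCTgaga
Dll1 second site: aacccagggacTGCTGCTgaga
Nrarp site: cttcgtagaagTGCTGCTgacc
That of the second seed, CGCTGCT, was in no member and in 4.73% of tested genes. Neither site was present in Jag1, Jag2 or Notch3, the genes that fell. Only exact matches to bases 2 to 8 in the longest coding transcript were searched. Whether either microRNA acts on a member was not tested.

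Jag1 encodes Jagged1, a transmembrane ligand of Notch receptors. It lies on mm10 chromosome 2 (137081456 to 137116644, ENSMUSG00000027276). It stood, in order of replicate number, at 20.4, 20.4, 19.8 and 21.2 CPM in EV libraries and at 14.3, 11.6, 14.8 and 16.1 CPM in KO libraries; all values below keep that order. Every KO library was below every EV library, with KO replicate 2 the lowest. The means were 20.4 ± 0.554 and 14.2 ± 1.89 CPM (SD, n = 4 each), so that the KO libraries were also the more scattered. The log2 fold change of Jag1 was −0.52 (SE 0.0909, 95% interval −0.71 to −0.33, edgeR adjusted p = 0.000263), and 9.06% of all tested genes had a change of at least that size. Permuting the group labels in all 70 ways gave a two-sided exact p = 0.0286, the smallest that 4 against 4 libraries allow. Leaving out KO replicate 1 gave −0.52 (edgeR adjusted p = 0.00113).

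Jag2, the gene of the related ligand Jagged2, lies on chromosome 12 (112908590 to 112929495, ENSMUSG00000002799). It stood at 5.42, 5.77, 4.58 and 5.65 CPM in EV and at 3.34, 3.48, 4.35 and 3.49 CPM in KO. The groups did not overlap, but EV replicate 3 and KO replicate 3 came close to each other. Its log2 fold change was −0.54 (SE 0.142, 95% interval −0.84 to −0.24, edgeR adjusted p = 0.00816, exact permutation p = 0.0286), with means of 5.36 ± 0.535 and 3.67 ± 0.463 CPM (SD, n = 4 each). Without KO replicate 1 it was −0.50 (edgeR adjusted p = 0.0281, exact permutation p = 0.0571). On the log2(FPKM + 1) scale, where a pseudocount of 1 is close to the level of Jag2 itself, the change was −0.31 (limma adjusted p = 0.0136).

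Dll1, the gene of the Delta-like ligand, lies on chromosome 17 (15367354 to 15376872, ENSMUSG00000014773). It had 17, 13, 11 and 13 counts in EV and 12, 4, 21 and 22 counts in KO. Its KO libraries held both the lowest and the highest counts of the series, and the groups overlapped throughout. The log2 fold change of 0.062 had a 95% interval from −0.76 to 0.88 (edgeR adjusted p = 0.925), wide enough to hold a change of the size seen in Jag1 in either direction. Dll1 overlaps A930024N18Rik on the opposite strand, which held 5 counts in all libraries together.

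**Figure D1:**
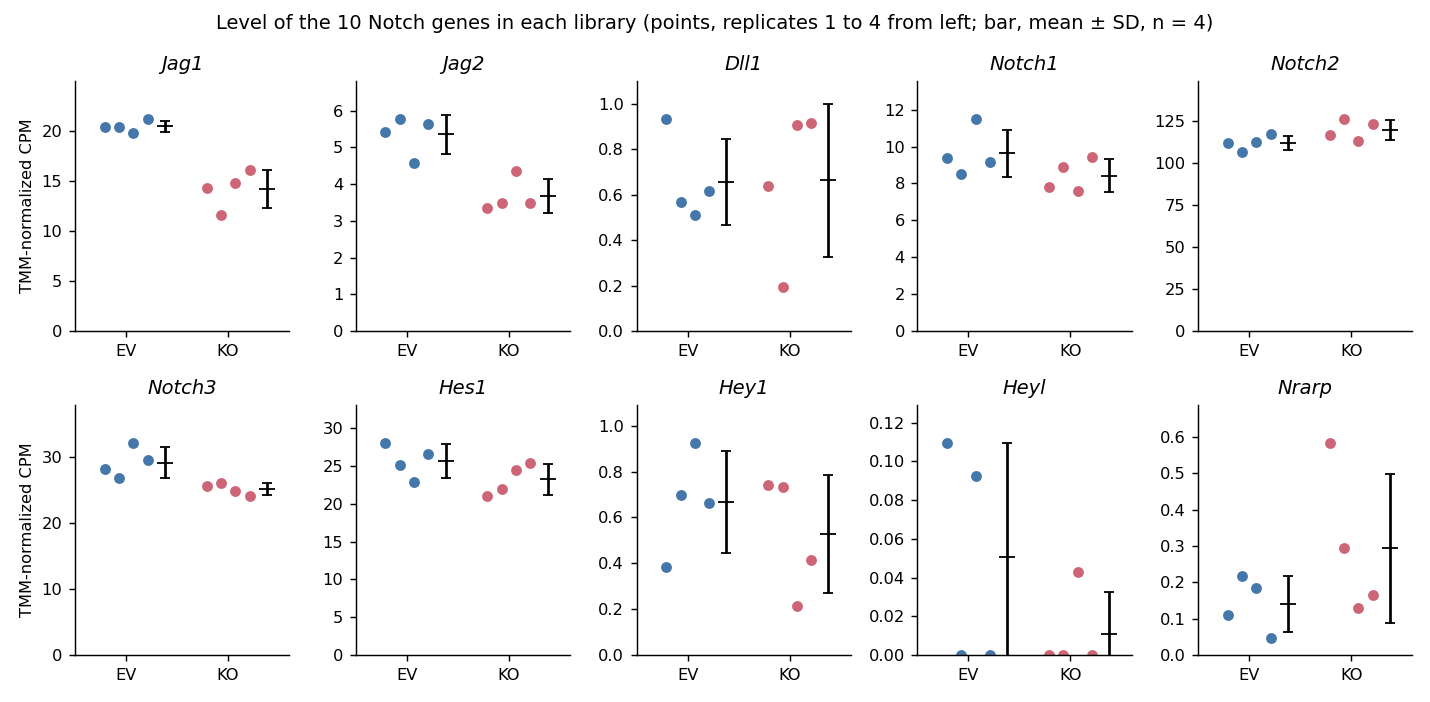
TMM-normalized CPM of the 10 genes (vertical axes from 0, a scale of its own for each gene), with 1 point for each EV (blue) and KO (red) library and the mean ± SD beside them. The KO points of Jag1 (11.6 to 16.1 CPM), Jag2 (3.34 to 4.35 CPM) and Notch3 (24.1 to 26.0 CPM) lie below all EV points, while the groups overlap for the other 7 genes. How many of all genes lie apart in this way was not counted, so the separation is not read as particular to these genes. Rfng and Itch of the wider pathway also lay apart, without being called. By the call in edgeR, which is a different measure, 26.0% of all tested genes passed.

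The ligand transcripts summed to 4.85 to 5.45 FPKM over the EV libraries and 2.94 to 3.90 FPKM over the KO libraries, given as a description with no test. Jag1 made up 70.8 ± 1.86% of this sum in EV and 69.9 ± 2.51% in KO (SD, n = 4 each), and Jag2 25.6 ± 1.56% and 25.2 ± 3.31%. The ratio of Jag1 to Jag2 per length was 2.71, 2.56, 3.12 and 2.71 in EV and 3.08, 2.41, 2.46 and 3.33 in KO. Those ranges overlap, and the difference of the log2 ratios was 0.014 (exact permutation p = 0.943), or −0.034 without KO replicate 1. The ratio depends on the listed gene length of Jag2, 4054 bases, whereas the longest coding transcript in GENCODE M21 has 5106.

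Endothelial cells express Jag1, so the levels of endothelial markers are given beside it. The sum over the 10 markers was 27.1 to 30.2 CPM in EV and 19.7 to 21.9 CPM in KO, with 1 of 3 tested markers called higher and 2 lower, or 3 lower in DESeq2. Kdr, a receptor for vascular endothelial growth factor, made up most of it (21.7 and 14.6 CPM, log2 fold change −0.58). Robo4, a receptor of endothelium, had the largest fall of the 3 tested in edgeR, from 1.65 to 0.620 CPM (−1.44). Tek, the angiopoietin receptor, stood at 3.89 and 5.19 CPM. The defining genes Pecam1 and Cdh5, singled out after their values were seen, had between 0 and 6 counts in any library. Tek was called higher (0.42), but kept the call in only 8 of 17 alternative settings. Library totals alone were among those that lost it (edgeR adjusted p = 0.0526). The part of these genes in the Jag1 difference was not tested.

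Among the receptors, Notch3 was lower in KO. Notch3, a receptor known from vascular smooth muscle, lies on chromosome 17 (32120820 to 32166880, ENSMUSG00000038146). It stood at 28.2, 26.7, 32.1 and 29.5 CPM in EV and at 25.6, 26.0, 24.8 and 24.1 CPM in KO. The groups did not overlap, but the gap between EV replicate 2 and KO replicate 2 was small, and EV replicate 3 was the highest of all. Its log2 fold change was −0.21 (SE 0.0698, 95% interval −0.36 to −0.069, edgeR adjusted p = 0.0291, exact permutation p = 0.0286), a size that 32.2% of all tested genes reached. The call was lost without KO replicate 1, the library with conflicting labels (−0.22, adjusted p = 0.0541, exact permutation p = 0.0571), and also without EV replicate 3 (−0.16, adjusted p = 0.120), KO replicate 3 (−0.21, adjusted p = 0.0657) or KO replicate 4 (−0.19, adjusted p = 0.0869), in edgeR each time.

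Smooth muscle markers are given beside Notch3. Of 8, 7 were tested, and 0 were called higher and 4 lower in edgeR and in DESeq2, with 0 higher at an unadjusted p under 0.05. The sum over all 8 was 1844 to 1979 CPM in EV and 1597 to 1731 CPM in KO. Tagln and Mylk, genes of the contractile apparatus, had log2 fold changes of −0.29 and −0.37, while Acta2, smooth muscle actin, was at 541 and 558 CPM and did not pass (adjusted p = 0.674). The defining gene Myh11, chosen after its values were seen, had at most 7 counts in a library. Their part in the Notch3 difference was not tested.

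Notch2 held most of the receptor transcripts. It lies on chromosome 3 (98013538 to 98150367, ENSMUSG00000027878) and stood at 112, 106, 112 and 117 CPM in EV and at 116, 126, 113 and 123 CPM in KO. The groups overlapped, with KO replicate 2 the highest and EV replicate 2 the lowest. The log2 fold change was 0.098 (SE 0.0490, 95% interval −0.0051 to 0.20, edgeR adjusted p = 0.158, exact permutation p = 0.0857), an interval that does not reach a fall of the size seen in Notch3. Notch1, on chromosome 2 (26457903 to 26516663, ENSMUSG00000026923), stood at 9.37, 8.52, 11.5 and 9.16 CPM in EV and at 7.80, 8.87, 7.59 and 9.44 CPM in KO. Its groups overlapped too, and its log2 fold change of −0.19 (SE 0.116, 95% interval −0.43 to 0.052) did not pass (edgeR adjusted p = 0.245, exact permutation p = 0.200).

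Within each library, Notch1 was then set against Notch2. The ratio of Notch1 to Notch2 per length was 0.0929, 0.0888, 0.113 and 0.0868 in EV and 0.0743, 0.0780, 0.0745 and 0.0848 in KO. Each KO value was below each EV value, if narrowly at KO replicate 4 and EV replicate 4. The log2 ratio differed by −0.29 (exact permutation p = 0.0286, the smallest possible, and 0.0571 after Benjamini-Hochberg adjustment over the 2 ratios compared), so that it did not pass after adjustment. The difference was −0.27 without KO replicate 1 (exact permutation p = 0.0571) and −0.20 without EV replicate 3. A ratio within a library does not depend on how libraries are scaled, and it does not show which of the genes moved.

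**Figure D2:**
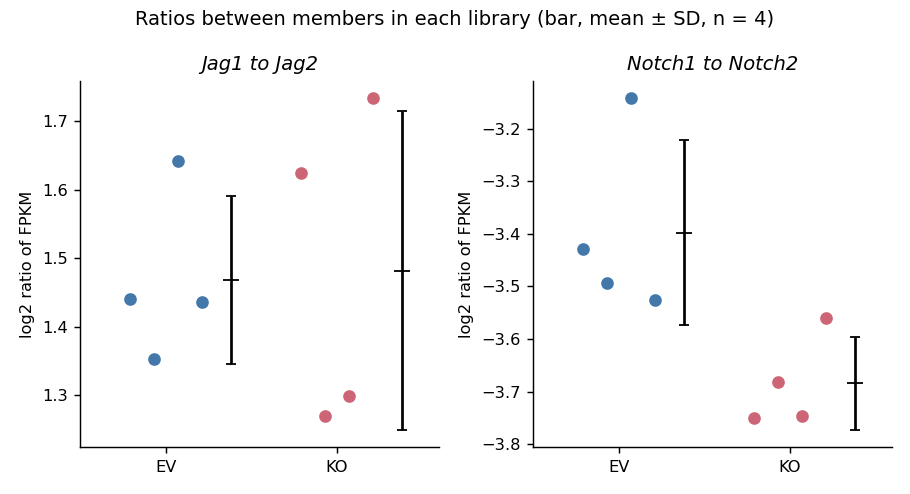
Log2 ratio of FPKM between Jag1 and Jag2 (left) and between Notch1 and Notch2 (right) in each EV (blue) and KO (red) library, with the mean ± SD of 4 libraries; neither vertical axis starts at 0. The Jag1 to Jag2 ratios overlap, and the Notch1 to Notch2 ratios lie at −3.53 and above in EV and at −3.56 and below in KO.

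As a share of the 3 receptor transcripts per length, Notch2 made up 69.7 ± 1.64% in EV and 73.9 ± 0.596% in KO (SD, n = 4 each). Notch3 made up 23.7 ± 0.976% and 20.3 ± 0.995%, and Notch1 6.64 ± 0.679% and 5.76 ± 0.409%. These shares carry no test. Their sum overlapped between the groups, at 14.7 to 16.1 FPKM in EV and 14.3 to 15.9 FPKM in KO. In every library the receptor sum exceeded the ligand sum.

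Hes1, a repressor of the basic helix-loop-helix family and a classic Notch target, lies on chromosome 16 (30064384 to 30067796, ENSMUSG00000022528). It stood at 28.1, 25.1, 22.8 and 26.6 CPM in EV and at 21.1, 22.0, 24.5 and 25.4 CPM in KO. The groups overlapped, and the highest KO libraries lay within the EV range. The log2 fold change was −0.14 (SE 0.0805, 95% interval −0.30 to 0.032, edgeR adjusted p = 0.233, exact permutation p = 0.171). A fall of the size of that of Jag1 lay outside this interval.

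Hey1, a related repressor gene on chromosome 3 (8663362 to 8667039, ENSMUSG00000040289), had 7, 16, 20 and 14 counts in EV and 14, 15, 5 and 10 counts in KO. The counts overlapped, and the log2 fold change of −0.40 had a 95% interval from −1.23 to 0.44 (edgeR adjusted p = 0.507). A fall of the size seen in Jag1 was not detectable for Hey1 at this depth.

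Nrarp, which encodes an ankyrin-repeat protein that limits Notch signalling, lies on chromosome 2 (25180758 to 25183339, ENSMUSG00000078202). It held 2, 5, 4 and 1 counts in EV and 11, 6, 3 and 4 counts in KO. The 11 counts came from KO replicate 1, the library with conflicting labels, and the other 3 KO libraries held 3 to 6. Summed over libraries, 12 counts stood against 24, a ratio of 1.94 after scaling with a 95% interval from 0.932 to 4.25 that covers counting error only (exact permutation p over libraries = 0.200, and 0.400 without KO replicate 1). Heyl, which encodes a relative of Hey1, on chromosome 4 (123233556 to 123249875, ENSMUSG00000032744), had 4 counts in the EV libraries together and 1 in the KO libraries, a ratio of 0.242 (counting interval 0.00492 to 2.45). At or under 3 counts in every library, Heyl could not be told from absence.

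**Figure D3:**
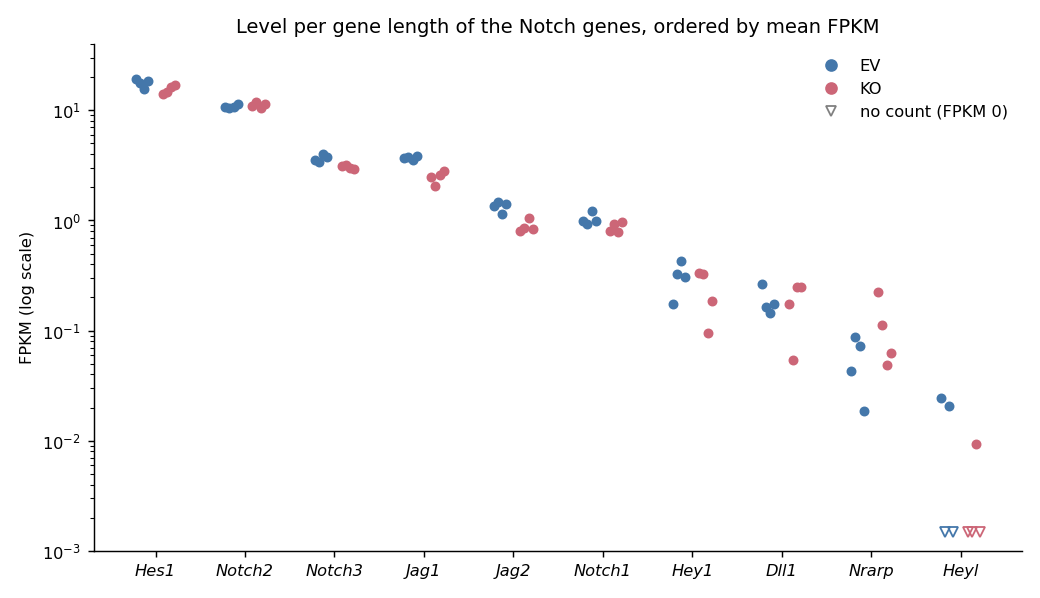
FPKM (log axis) of each gene in each EV (blue) and KO (red) library, ordered by the mean over all 8; open triangles at the foot mark libraries with no count. Hes1 and Notch2 stand at 10 FPKM or more in every library, and Hey1, Dll1, Nrarp and Heyl below 0.5 FPKM in every library.

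By level per gene length, the members spread widely. Hes1 (17.8 ± 1.54 FPKM in EV, 15.5 ± 1.33 in KO, SD, n = 4 each) and Notch2 (10.8 ± 0.401 and 11.2 ± 0.590) led and did not overlap each other. Next came Notch3 (3.68 ± 0.272 and 3.07 ± 0.114) and Jag1 (3.71 ± 0.118 and 2.48 ± 0.323). This pair did not differ beyond its spread in EV, where their ranges overlapped, while in KO each Notch3 value (2.93 to 3.19 FPKM) was above each Jag1 value (2.04 to 2.81 FPKM). Jag2 (1.34 ± 0.142 and 0.888 ± 0.110) and Notch1 (1.03 ± 0.131 and 0.872 ± 0.0910) overlapped each other in both groups. Below them, Hey1 (0.309 ± 0.102 and 0.235 ± 0.115), Dll1 (0.186 ± 0.0527 and 0.182 ± 0.0920) and Nrarp (0.0552 ± 0.0305 and 0.112 ± 0.0785) overlapped one another in at least one group and did not reach the Notch1 range, and Heyl had no count in 5 of 8 libraries.

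**Figure D4:**
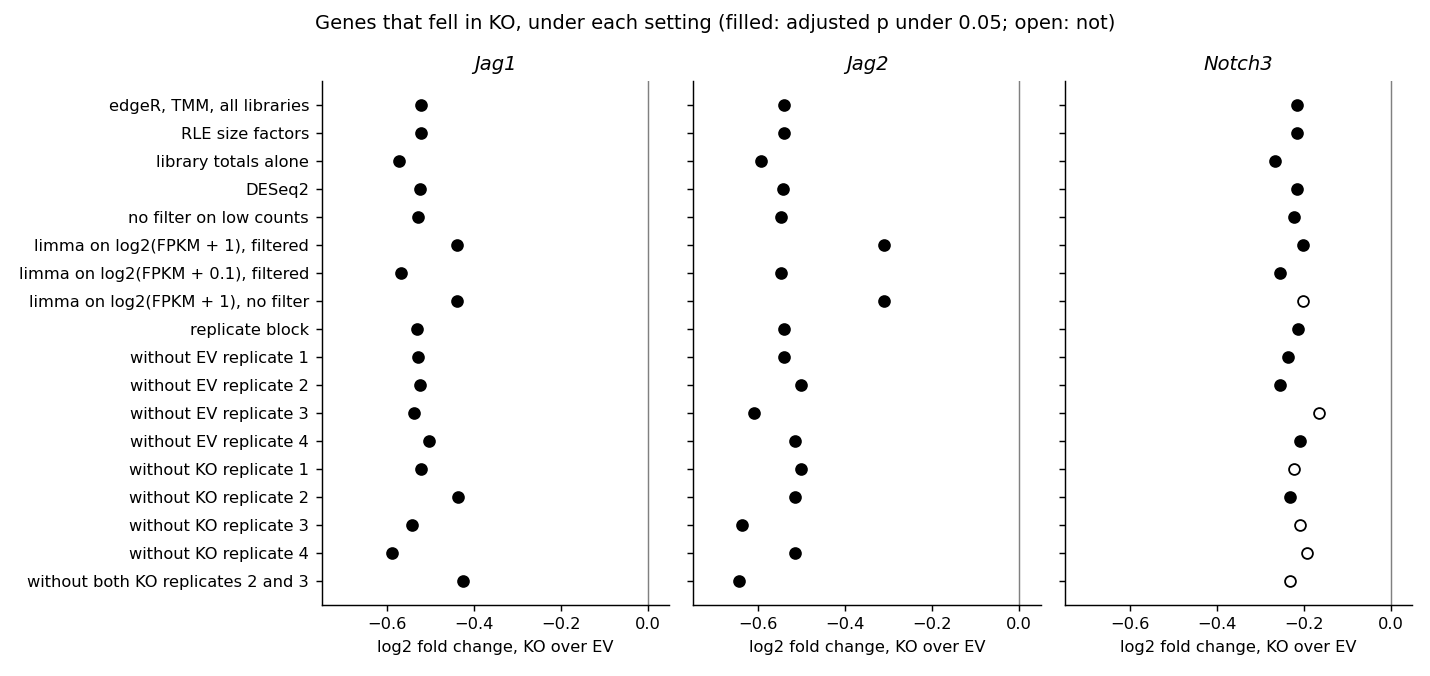
Log2 fold change of Jag1, Jag2 and Notch3 (horizontal axes) under each setting (rows), filled where the adjusted p was under 0.05. Jag1 and Jag2 are filled in every row, and Notch3 is open in 6 rows.

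Around the members, 90 further genes of the pathway were listed by role. Of these 78 were tested, and 16 were higher and 11 lower in KO (34.6% called, beside 26.0% of all genes), with a median log2 fold change of −0.019. The balance turned with the scaling: with library totals alone 8 were higher and 15 lower, as all genes went from 1613 higher and 1711 lower to 1039 and 2414. Psen2, Kdm1a, Ctbp1, Dtx3l, Numbl and Hes6, each called higher in KO below, lost the call under that scaling and kept the sign. Without KO replicate 1, 11 were higher and 8 lower, with Kdelc1, Fbxw7, Maml1, Kdm1a, Numbl and Hes6 among those lost, and without EV replicate 3, 10 and 9.

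The remaining canonical components were hardly detected. Dll4, the Delta-like ligand of endothelium, had 5 counts in EV and 4 in KO, and Dll3, Dll4 and Notch4 did not pass the filter on counts. Notch4, a receptor of endothelium, held 7, 8, 5 and 3 counts in EV and 8, 8, 23 and 23 in KO. The summed ratio of 2.61 (counting interval 1.6 to 4.42) rests on KO replicates 3 and 4, since KO replicates 1 and 2, at 0.425 and 0.392 CPM, were next to the highest EV library at 0.384 CPM. With no filter it was called higher by edgeR (log2 fold change 1.33, adjusted p = 0.0407), and in DESeq2 it was not (adjusted p = 0.0659). The non-canonical ligands moved more. Of 6 tested, 2 rose and 2 fell. Dlk1, a Delta-like protein without the receptor-binding DSL domain, went from 82.7 ± 5.59 to 48.0 ± 5.31 CPM (SD, n = 4 each, log2 fold change −0.78, edgeR adjusted p = 8.47e-08). Its paralogue Dlk2 rose (0.49), and it overlaps Abcc10 on the opposite strand by 51 bases. Mfap2, a microfibril protein, fell (−1.13), and Nov, a matricellular protein that binds Notch receptors, rose from 0.540 to 1.65 CPM (1.66, SE 0.352).

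Genes that act on the ligands and receptors split as well. Of 5 ubiquitin ligases that act on Notch ligands, 1 rose and 1 fell: Neurl1b went from 4.94 ± 1.28 to 1.46 ± 0.340 CPM (SD, n = 4 each), with −1.75 as its log2 difference (SE 0.218, edgeR adjusted p = 6.20e-06), and its paralogue Neurl1a rose (0.32). Of 7 tested glycosyltransferases that modify the receptor's EGF-like repeats, 0 rose and 2 fell, Eogt (−0.31) and Kdelc1 (−0.20), with 1 higher at an unadjusted p under 0.05 in edgeR and 0 in DESeq2. Among 10 proteases, 2 rose and 0 fell in edgeR and in DESeq2, 0 were lower at an unadjusted p under 0.05, and with library totals alone 1 rose and 1 fell. The called genes were Adam10, the sheddase that cuts ligand-bound receptors (0.20, from 420 to 481 CPM), and Psen2, a catalytic subunit of gamma-secretase (0.19). Of 12 endocytosis and turnover genes, 2 rose and 2 fell: the Deltex-family genes Dtx3l (0.20) and Dtx4 (−0.52), the Numb relative Numbl (0.20), and Fbxw7 (−0.30), which marks the cleaved receptor for degradation. With library totals alone 0 of these 12 were higher and 3 lower. Dtx3l and Fbxw7 overlap well-expressed genes on the opposite strand, and Numbl one on its own strand.

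In the nucleus, Rbpj itself, singled out after its values were seen, stood at 56.4 and 59.6 CPM and did not pass (edgeR adjusted p = 0.278). Of 8 tested genes for RBPJ and its coactivators, 0 rose and 1 fell, the coactivator Maml1 (−0.13, edgeR adjusted p = 0.0394), with 1 higher at an unadjusted p under 0.05 and 0 higher in DESeq2. Of 18 corepressor genes, 4 rose and 1 fell, and with library totals alone 1 rose and 3 fell. Tle4, a Groucho-family corepressor, went from 29.3 ± 1.34 to 19.0 ± 0.994 CPM (SD, n = 4 each, −0.63, edgeR adjusted p = 1.39e-06), while its paralogue Tle1 (0.28), Ctbp1 (0.16) and the histone demethylase gene Kdm1a (0.14) rose. Of 4 tested genes of the wider Hes and Hey family, Hes6 rose (0.25) and Bhlhe40, also a clock-linked repressor, fell (−0.20). Kdm1a overlaps Luzp1 on the opposite strand.

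Of 8 other genes described as Notch targets in one tissue or another, 4 rose and 1 fell. Ccnd1, the cyclin D1 gene, went from 26.8 ± 2.40 to 56.4 ± 6.11 CPM (SD, n = 4 each, log2 fold change 1.07, edgeR adjusted p = 7.40e-09). Sox9, a transcription factor gene (0.99), and the cell cycle inhibitor gene Cdkn1a (0.72) rose, and Pdgfrb, the PDGF receptor gene of mural cells, fell (−0.43). These genes answer to many other signals. Ccnd1 overlaps Oraov1 on the opposite strand.

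**Figure D5:**
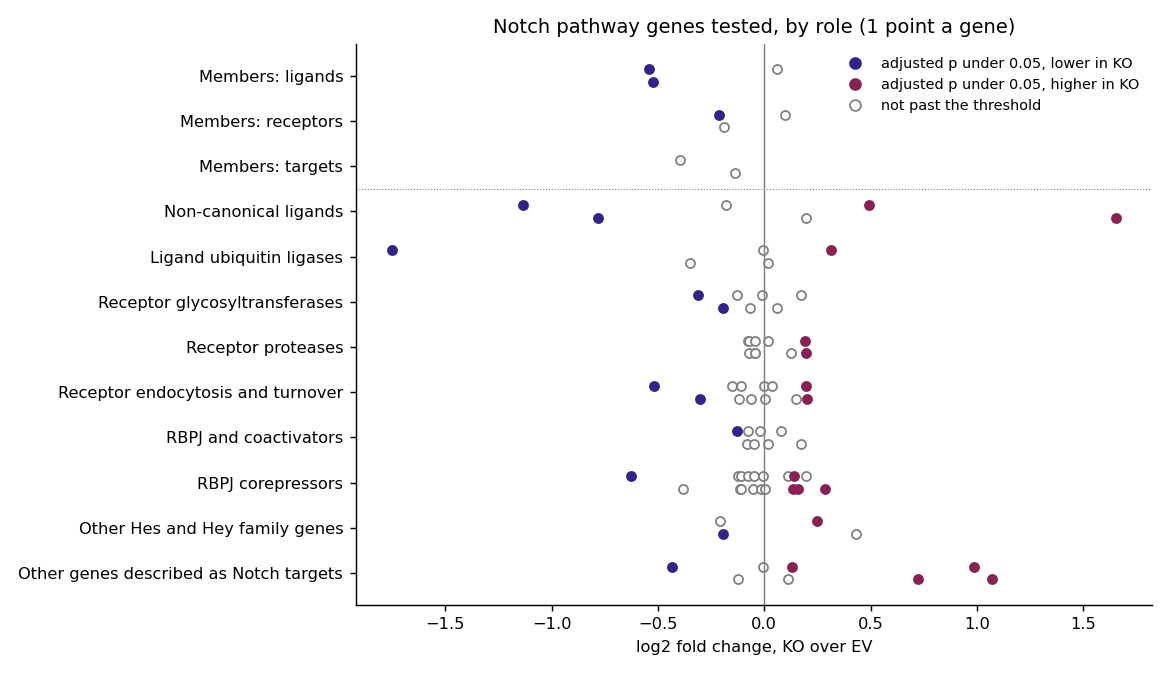
Log2 fold change of each tested Notch pathway gene (horizontal axis, 1 point a gene), by role, with the members above the dotted line; filled points passed an adjusted p of 0.05. The ligands hold 2 filled points on the lower side (−0.54 and −0.52), and the wider lists hold 16 on the higher and 11 on the lower side.

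Liver and other marker lists moved between the groups too. Of 15 liver markers 8 were tested, and 5 rose and 1 fell in edgeR, against 6 and 1 in DESeq2. Alb (1.80) and Ces1g (1.51) were among the higher ones, and Hp (−0.62) was the lower one. The sum over all 15 was 15.1 to 17.0 CPM in EV and 20.4 to 37.2 CPM in KO, highest in KO replicates 2 and 3. Without those libraries Jag1 was at −0.42 (edgeR adjusted p = 0.00715), Jag2 at −0.64 (adjusted p = 0.0214) and Notch3 at −0.23 (adjusted p = 0.103). Of 9 cardiomyocyte markers 4 were tested, and 0 rose and 2 fell in edgeR (1 higher at an unadjusted p under 0.05), against 0 and 3 in DESeq2. The 2 were Tnnt2 (−0.33) and Ttn, named after its values were seen (−1.82, from 2.02 to 0.587 CPM). Myl7 and Myl2 averaged 1.44 and 0.582 CPM in EV. Of 6 macrophage markers 3 were tested, and 1 rose and 1 fell. Cd68 was higher (0.73) and Cd14 lower (−0.28), and Csf1r did not pass (edgeR adjusted p = 0.0952). The defining gene Adgre1, also named after its values were seen, had no count. The part of these markers in the Notch results was not tested.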

How the data were processed

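Per the file headers, the deposited tables hold raw counts and FPKM of 35275 genes. Build mm10 and DESeq 1.6.3 are named in the submitters' processing notes; aligner, counter and strandedness were not given in the sources used here. Whether reads from overlapping genes on opposite strands were told apart is therefore not known. The deposited FPKM values equal counts per gene length and column total for 100% of nonzero values within 1e-06, with no composition correction. Gene lengths are those of the deposited tables.

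Libraries were grouped by title. Replicate pairs were distinct libraries (chi-square over degrees of freedom 4.01 to 13.2, genes with at least 20 counts). edgeR 4.0.16 (R 4.3.3) was run on the counts of all genes, with TMM, filterByExpr (minimum count 10, minimum total 15) and the quasi-likelihood F test, two-sided, Benjamini-Hochberg adjusted over all tested genes, and checked on simulated data. CPM are TMM-scaled. Standard errors are the log2 fold change divided by the square root of F. Single genes and ratios had exact permutation tests over 70 arrangements. Alternatives were DESeq2 1.42.0, other scaling or filters, limma 3.58.1 on log2(FPKM + 1) and log2(FPKM + 0.1), the replicate number as a block, and libraries left out. RefSeq promoters and GENCODE M21 3′ untranslated regions were searched for exact letters on both strands and on the transcript strand, respectively.

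The members and lists were chosen with earlier results of these data known. Genes named are all members, up to 4 called genes with the smallest adjusted p in each pathway list (where none passed, up to 2 with the highest FPKM), and the 3 most abundant of each marker list. Hdac3 is given because it is the targeted gene, and other exceptions are stated.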

Additional observations from a re-analysis of the deposited data

Results flagged for a closer look

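Jag2 in KO replicate 3 stood at 4.35 CPM, apart from the other KO libraries at 3.34 to 3.49 CPM, and without that library the log2 fold change of Jag2 was −0.64 in place of −0.54. Heyl in KO replicate 3 stood at 0.0431 CPM, which is a single count where the other KO libraries had 0. Each was marked because its gap to the nearest library of its group exceeded the 95% critical share of the group's range for 4 samples. In all, 20 groups of 4 libraries were looked at, and chance marks about 1 in 20. That rate does not hold for Heyl, because a lone count beside libraries with 0 is always marked.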

How the results depend on the processing

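Jag1 and Jag2 kept their direction and their call under all 17 alternatives (log2 fold changes of −0.59 to −0.42 and −0.64 to −0.31). Notch3 kept its direction in all 17 and its call in 11; it lost the call on log2(FPKM + 1) without a filter (−0.20), without both KO replicates 2 and 3 (−0.23) and without some single libraries (range −0.26 to −0.16 with 1 library left out; the cause was not tested). Of all genes, those higher in KO numbered 1039 with library totals alone, 896, 897 and 766 in FPKM (pseudocounts 1 and 0.1, and 1 without a filter), and those of the wider pathway 8, 7, 7 and 5; with 1 library left out the latter were 10 to 15. Without both KO replicates 2 and 3, with fewer samples, 1974 genes were called, 880 higher and 1094 lower, and 8 and 7 of the wider pathway.

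Dll1 changed sign: its log2 fold change was −0.0081 on log2(FPKM + 1) without a filter and −0.14 to 0.35 with 1 library left out, and its difference in CPM −0.017 with library totals alone and −0.077 to 0.16. So did Acta2, at −0.0048 with library totals alone, −0.0078 in all 3 FPKM fits and −0.035 to 0.096 with 1 library left out. By permutation with 1 library left out, Jag2 differed by −1.95 to −1.55 CPM and Notch3 by −4.81 to −3.02 CPM, with exact p up to 0.0571; the log2 ratio of Notch1 to Notch2 differed by −0.33 to −0.20, and that of Jag1 to Jag2 by −0.071 to 0.084.

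The labels do not say what a replicate number stands for, and by the rule used (every correlation over 0.1) the numbers were not taken to pair the libraries: same-numbered libraries correlated at −0.034 to 0.12 in their deviations from the group means, and 6 of 8 libraries correlated best with their own number, a hint from the data, so that whether the numbers mark a batch was not settled. With the replicate block 3737 genes were called in place of 3324 and the same 3 members; the Notch1 to Notch2 difference was −0.29 with an exact p of 0.125, the smallest that 4 pairs allow. Depth limits Heyl, Nrarp, Dll1 and Hey1, whose intervals cover changes of the size of that of Jag1. For Nrarp this holds for a rise only, and for Hey1 for a fall only. The intervals of Heyl and Nrarp cover counting error alone.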

Other observations

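In 3 pairs of paralogues on the wider pathway lists, noticed after the values were seen, one gene rose and the other fell. Dlk1 fell (−0.78) and Dlk2 rose (0.49), Neurl1b fell (−1.75) and Neurl1a rose (0.32), and Tle4 fell (−0.63) and Tle1 rose (0.28). These pairs were picked, and how many pairs the lists hold was not counted. The relatives Tle2, Tle3 and Neurl3 were not called. The Deltex-family genes Dtx3l (0.20) and Dtx4 (−0.52) also went opposite ways. Dlk1, Neurl1b, Tle4 and Tle1 kept their call under all 17 alternatives, and Dlk2 and Neurl1a under 16, both losing it on log2(FPKM + 1) without a filter (adjusted p = 0.0549 and 0.0874). Neurl1b was at 3.47 to 6.55 CPM in EV and 0.980 to 1.70 CPM in KO, so that its groups lay well apart.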
